A study of Arabidopsis thaliana with 8 samples.

Results

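The serine carboxypeptidase-like (SCPL) genes of Arabidopsis thaliana were examined in roots with and without phosphate (Pi). Members were loci whose current symbol in the TAIR10.1 RefSeq annotation is SCPL followed by a number, in either letter case, and that had a probeset assigned to 1 gene. This rule uses names only and found 29 of the 49 loci with such a symbol, among 13286 loci with a named probeset. Each member had 1 probeset, and none of the 29 carried the suffix that marks a probeset shared between related transcripts. A further 3 loci (scpl36, scpl37 and scpl39) lay on 2 probesets assigned to several genes and were not analysed here. The other 17, which include SCPL19 and scpl17, were not analysed here because the annotation gave them no probeset.

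SCPL proteins carry the fold and the serine, aspartate and histidine catalytic triad of carboxypeptidases. Some members of the family cut amino acids from the C terminus of proteins and peptides, as carboxypeptidase Y of yeast does in the vacuole. Others have become acyltransferases that take acyl groups from glucose esters: SNG1 and SNG2 (SCPL8 and SCPL19) make sinapoylmalate and sinapoylcholine in leaves and seeds. BRS1 (SCPL24) is a secreted carboxypeptidase that, when overexpressed, suppresses a weak mutation of the brassinosteroid receptor BRI1. SNG1 and BRS1 have symbols outside the rule and were not analysed here.

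The 8 arrays came from 4 groups of 2: per1 roots in Pi-free medium, per1 roots in control medium, Col-0 roots in Pi-free medium and Col-0 roots in control medium. Seedlings had grown on agar with control medium for 10 days and were then moved for 10 h to either medium. All are of the Col-0 ecotype, and per1 is a single mutant line in that wild-type background, known from the literature for a defect in UBP14, a ubiquitin-specific protease, and for root hairs that do not lengthen in low Pi. UBP14 had no named probeset, so the mutation was not checked on the arrays. The labels call the 2 arrays of a group biological replicates and do not say how many plants each holds; a free-text label speaks of iron supply, at odds with the titles, which were followed.

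Values are linear probeset signals that the authors had scaled, with array medians between 186 and 197.1. The bacterial control probesets read at most 26.1 to 43.4 per array. The 4 measured of 14 root markers were EXPA7, EXPA18, PRX44 and BGLU23. In control medium their summed signals overlapped, at 27619 to 31098 in per1 and 28862 to 31201 in Col-0. In Pi-free medium they did not, at 25217 to 26013 in per1 and 28403 to 28540 in Col-0. BGLU23 alone read 20941 to 24225, so it makes up most of each sum. The gap in Pi-free medium does not rest on it alone. There PRX44 read 2907.7 and 2948.7 in per1, against 4414.2 and 4002.5 in Col-0. EXPA18 read 869.6 and 765.2 in per1, against 1314.5 and 1369.8 in Col-0. EXPA7 read 551.0 and 562.8 in per1, against 602.4 and 789.4 in Col-0. BGLU23 read 21684.8 and 20940.6 in per1, against 22208.5 and 22241.3 in Col-0. The 3 measured of 17 green shoot markers (RCA, LHCB4.1 and PRK) had summed signals of 307.4 to 382.3 in per1 and 505.4 to 695.0 in Col-0. The other markers of both lists, among them the endodermal genes SCR and CASP1 and the Rubisco small subunit genes, were not analysed here. In whole roots, fewer cells of a type and less RNA per cell cannot be told apart.

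Of the 29 members, 16 had a signal above 50 on all 8 arrays, 7 on some arrays and 6 on none. The mean over the 8 arrays was above 50 for 19 and at or under 50 for 10. None was removed by a filter. The 6 that stayed at or under 50 throughout were scpl38, SCPL43, scpl22, scpl23, scpl16 and scpl41. Changes are on the scale of log2(signal + 16), which understates those of low signals. Each comes from 1 limma fit with a mean per group over 22746 probesets, and a gene was called where its Benjamini-Hochberg adjusted p over all of them was under 0.05.

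The first question was whether per1 roots differ from Col-0 roots in SCPL transcripts, and 2 members did when the media were averaged: scpl26 (AT2G35780) and SCPL27 (AT3G07990), both lower in per1. The scpl26 signal was 561.0 and 581.4 in Pi-free per1 and 591.6 and 595.4 in control per1 roots, against 921.0 and 935.4 in Pi-free Col-0 and 1058 and 1045 in control Col-0 roots. All 4 per1 arrays lay below all 4 Col-0 arrays, and the 2 arrays of each group lay close together. Averaged over the media, scpl26 was lower in per1 by a log2 difference of -0.75 ± 0.07 (SE, n = 4 arrays per genotype), with an adjusted p of 0.0035 from limma and a 95% interval of -0.91 to -0.58. Within replicate numbers 1 and 2 the difference was -0.76 and -0.73.

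SCPL27 gave 310.0 and 358.0 in Pi-free per1 and 307.7 and 337.0 in control per1 roots, against 486.5 and 539.9 in Pi-free Col-0 and 549.9 and 558.9 in control Col-0 roots. Again no per1 array reached a Col-0 array. The averaged log2 difference was -0.68 ± 0.10 (SE, n = 4 arrays per genotype), with an adjusted p of 0.019 from limma and a 95% interval of -0.89 to -0.46. The 2 of 29 called make 6.9% of the members, where 0.818% of all probesets were called in this comparison. At an unadjusted p under 0.05 in limma, 2 members were higher and 5 lower in per1, which is 24.1% of them against 14.1% of all probesets. The median over the 29 was -0.08 and over all probesets -0.01. Over the 19 members with a mean signal above 50 it was -0.22. No median of all probesets above that signal is given here to set beside it.

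Over the 8 fits that each left out 1 array, scpl26 passed in 8, with adjusted p from limma of 0.015 to 0.047. SCPL27 passed in 1 of these fits, the one that left out replicate 1 of Pi-free Col-0, at an adjusted p of 0.031; in the other 7 its log2 difference was -0.63 to -0.73 with an adjusted p of up to 0.12. Without an intensity trend in the variances limma called 0 of all 22746 probesets in this comparison, with 2845 at an unadjusted p under 0.05; the adjusted p was 0.086 for scpl26 and 0.11 for SCPL27.

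**Figure D1:**
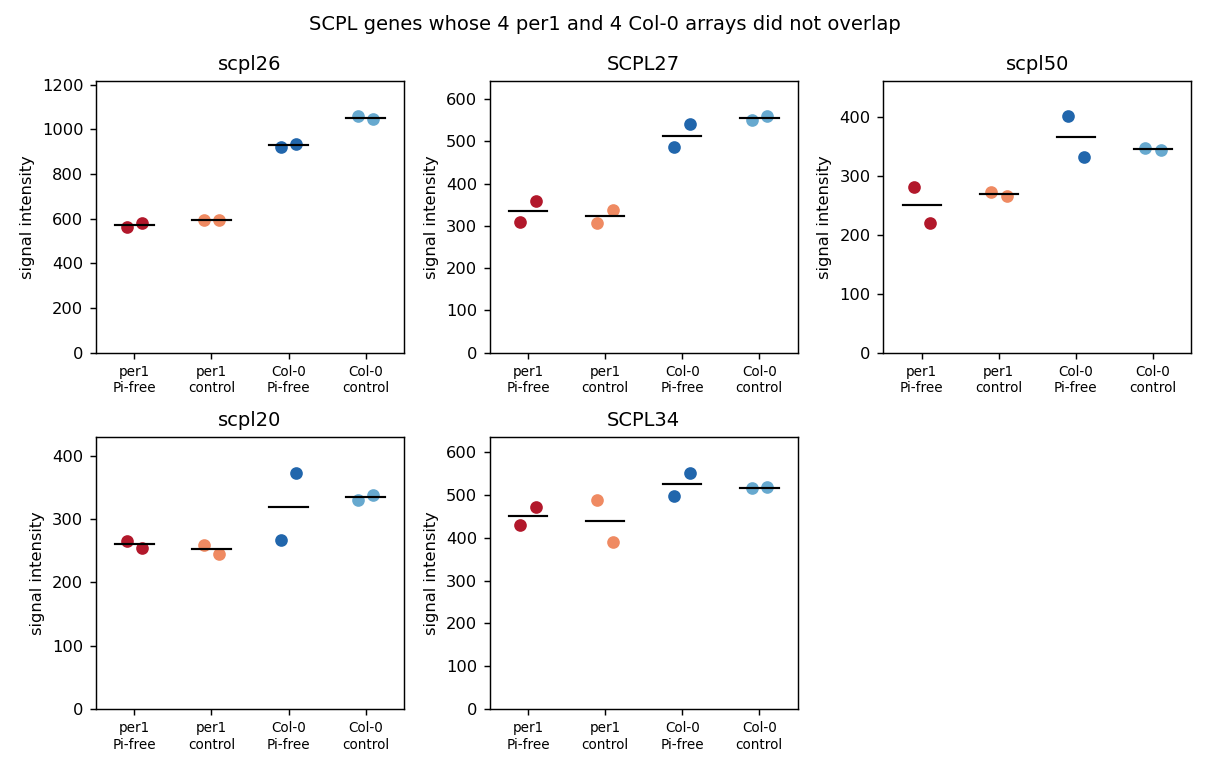
Signal intensity on each array (points; replicate 1 at the left, replicate 2 at the right) and group mean (line) for the 5 members whose per1 and Col-0 arrays did not overlap, in 4 groups of 2 arrays. The 4 per1 arrays lie between 561.0 and 595.4 for scpl26 and the 4 Col-0 arrays between 921.0 and 1058; the gap is narrower for scpl50, scpl20 and SCPL34, which did not pass the test.

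Besides these 2, the arrays of scpl50, scpl20 and SCPL34 were separate by genotype. These 5 members, all lower in per1, are 17.2% of the family, where 4.79% of all probesets were separate and lower and 4.09% separate and higher. For scpl50 (AT1G15000) the signal was 281.6 and 221.1 in Pi-free per1 and 272.7 and 266.6 in control per1 roots, against 401.6 and 331.9 in Pi-free Col-0 and 347.4 and 343.8 in control Col-0 roots. Its averaged log2 difference was -0.43 ± 0.12 (SE), with an adjusted p of 0.15 from limma. For scpl20 (AT4G12910) the averages were 260.7 ± 8.0 in Pi-free per1 and 252.9 ± 9.9 in control per1 roots, against 320.3 ± 75.9 in Pi-free Col-0 and 334.7 ± 6.3 in control Col-0 roots (SD, n = 2 each). The lowest Col-0 array, at 266.6, was only just above the highest per1 array, at 266.3. Its log2 difference was -0.32 ± 0.13 with an adjusted p of 0.28. SCPL34 (AT5G23210) stood at -0.22 ± 0.10 with an adjusted p of 0.36. No member was separate and higher in per1.

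The largest averaged estimate belonged to SCPL32 (AT1G61130), which did not pass. Its signal was 32.3 and 65.2 in Pi-free per1 and 51.3 and 46.5 in control per1 roots, against 131.6 and 167.3 in Pi-free Col-0 and 59.6 and 166.0 in control Col-0 roots. The control Col-0 array of replicate 1 lay within the per1 range, while the other 3 Col-0 arrays lay above it. The log2 difference was -1.12 ± 0.30 (SE), with an adjusted p of 0.13 from limma; it was -0.89 within replicate number 1 and -1.36 within number 2. It passed in 1 of 14 alternatives, the one with only probesets of mean signal above 50, at an adjusted p of 0.045. In the 8 fits that left out an array its difference ran from -1.44 to -0.81 and its adjusted p from 0.093 to 0.37.

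In control medium alone, 1 of the 29 members was called, scpl26, which was lower in per1 by -0.81 ± 0.10 (SE, n = 2 arrays each), with an adjusted p of 0.032 from limma. That is 3.45% of the members, where 0.0572% of all probesets were called. At an unadjusted p under 0.05 in limma there were 2 higher and 2 lower members, 13.8% of the family against 10.3% of all probesets. In the 8 fits that left out an array, scpl26 passed only in the one without replicate 1 of Pi-free Col-0. In the other 7 the difference stayed between -0.80 and -0.82. Leaving out a Pi-free array cannot change this estimate, only its variance. SCPL27 averaged 322.4 ± 20.7 in per1 and 554.4 ± 6.4 in Col-0 (SD, n = 2 each), a log2 difference of -0.75 ± 0.14 that missed the threshold at an adjusted p of 0.12. The next smallest p belonged to scpl48 (AT3G45010), which leaned the other way. Its signal was 1317 and 1466 in per1, against 1060 and 1094 in Col-0, a log2 difference of 0.36 ± 0.12 with an adjusted p of 0.36.

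SCPL49 (AT3G10410), which RefSeq also lists as CPY after carboxypeptidase Y, gave 2424 and 2561 in per1, against 2121 and 2083 in Col-0 in control medium. Its log2 difference was 0.24 ± 0.11 (SE), with an adjusted p of 0.48 from limma. In Pi-free medium the 2 genotypes overlapped, at 2566 and 2219 in per1, against 2381 and 2133 in Col-0. The SCPL49 and scpl48 arrays of per1 lay above those of Col-0 in control medium, and 13 other members lay below. The separate and lower members were 44.8% of the family, where the same held for 22.3% of all probesets, and the 2 separate and higher ones were 6.9% of it, against 19.1%. Of those 13, SCPL43, scpl23, scpl33 and scpl38 had mean signals at or under 50. The members' median in control medium was -0.15 and that of all probesets -0.02.

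**Figure D2:**
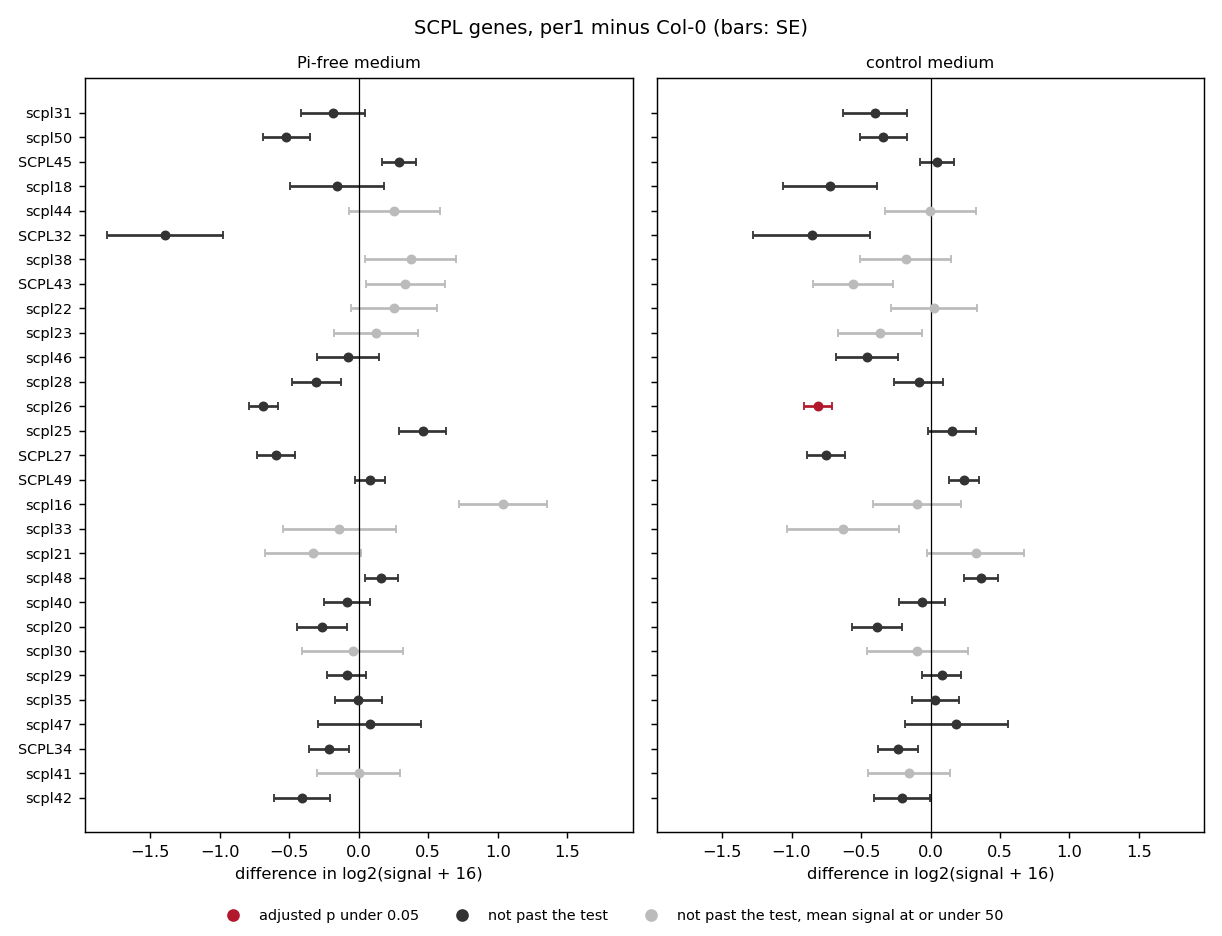
Difference in log2(signal + 16) between per1 and Col-0 for each of the 29 members, in locus order, in Pi-free medium (left) and control medium (right); points are limma estimates from 2 arrays per group and bars are SE. Only scpl26 in control medium passes the test, and scpl26 and SCPL27 lie at -0.69 and -0.60 in Pi-free medium and at -0.81 and -0.75 in control medium.

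In Pi-free medium 0 of the 29 members were called by limma, where 0.0308% of all probesets were. At an unadjusted p under 0.05, 3 members were higher and 4 lower in per1, 24.1% of the family against 10.7% of all probesets. The smallest p belonged to scpl26, at 571.2 ± 14.4 in per1 and 928.2 ± 10.2 in Col-0 (SD, n = 2 each). Its log2 difference was -0.69 ± 0.10 with an adjusted p of 0.086 from limma. With the replicate number in the model the adjusted p was 0.044, and with only probesets of mean signal above 50 it was 0.035. With a pseudocount of 64 it was 0.12, and without an intensity trend 0.26. SCPL27 stood at -0.60 ± 0.14 with an adjusted p of 0.21, and SCPL32 at -1.39 ± 0.42 with an adjusted p of 0.29. Members with separate arrays numbered 5 higher in per1, 17.2% against 20.5% of all probesets, and 7 lower, 24.1% against 19.8%. Both shares of separate members are near those of all probesets. The higher ones included scpl25 (AT3G02110), with 341.6 and 364.4 in per1, against 271.0 and 234.2 in Col-0. In control medium scpl25 overlapped, at 348.9 and 354.8 in per1, against 272.5 and 362.0 in Col-0.

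Other measures were read by genotype beside scpl26 and SCPL27. The summed green shoot markers did not overlap, as given above, and RCA, Rubisco activase, was called lower in per1 when the media were averaged, at -0.73 ± 0.13 with an adjusted p of 0.043 from limma. EXPA18, a root hair expansin, was called lower as well, at -0.47 ± 0.08 with an adjusted p of 0.030. Of the other green shoot markers, LHCB4.1 just missed the threshold, at -0.76 ± 0.15 with an adjusted p of 0.052 from limma. PRK, the one of lowest signal, overlapped between genotypes, at -0.33 ± 0.26 with an adjusted p of 0.63. The 25S rRNA probeset read 88.4 and 241.8 in Pi-free per1 and 99.7 and 203.5 in control per1 roots, against 51.8 and 143.4 in Pi-free Col-0 and 47.0 and 117.2 in control Col-0 roots. It was higher in per1 in each same-numbered pair of a medium, although the ranges of the genotypes overlapped. The 3' to 5' signal ratios are a sign of RNA integrity. With the media pooled they overlapped between genotypes, at 2.23 to 2.73 in per1 and 2.59 to 3.72 in Col-0 for GAPDH. For actin they were 23.9 to 49.8 in per1 and 37.8 to 52.1 in Col-0. In control medium alone both ratios were separate and lower in per1. GAPDH gave 2.23 and 2.36 in per1 against 3.19 and 3.19 in Col-0, and actin 39.0 and 23.9 against 40.3 and 52.1. The part of the marker sums, RCA, EXPA18, the 25S rRNA signal and these ratios in the scpl26 and SCPL27 differences was not tested.

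The next question was whether 10 h without Pi changed SCPL transcripts, and no member was called in either genotype or on average. In per1 roots 0 of 29 passed limma, where 0.0044% of all probesets did, and 0 members had an unadjusted p under 0.05, against 4.47% of all probesets. In Col-0 roots 0 of 29 passed, where 0.0615% of all probesets did, and 1 had an unadjusted p under 0.05, against 7.68% of all probesets. Averaged over the genotypes, 0 passed against 0.127% of all probesets, with 1 at an unadjusted p under 0.05, against 6.3% of all probesets. The members' median was 0.04 in per1, -0.06 in Col-0 and 0.02 on average, beside 0.02, 0.00 and 0.01 for all probesets.

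How large a response the arrays could have missed differed between members. For the averaged response, the 95% interval lay within 0.5 of zero on the log2 scale for 15 of the 19 members with a mean signal above 50, and within 1 for 18. Within a genotype it lay within 0.5 for fewer of them, 12 in per1 and 9 in Col-0. For the average the exception at 1 was scpl47 (AT5G22980), whose interval reached 1.06. Narrow intervals included those of SCPL49, at -0.15 to 0.19, and of scpl29 (AT4G30810), at -0.18 to 0.27. For the called genes, scpl26 had an averaged Pi response of -0.12 ± 0.07 (SE) with an interval of -0.28 to 0.05, and SCPL27 one of -0.03 ± 0.10 with an interval of -0.25 to 0.19.

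Within Col-0 the smallest p belonged to scpl16 (AT3G12220), a low-signal member. Its signal was 7.8 and 6.8 in Pi-free medium, against 48.0 and 32.0 in control medium. The Pi-free arrays lay below the bacterial maximum of the same array, and the control arrays just above it. The log2 change was -1.25 ± 0.31 (SE), with an adjusted p of 0.36 from limma. In per1 the scpl16 arrays overlapped, at 35.2 and 28.7 in Pi-free and 44.4 and 28.5 in control medium. SCPL45 (AT1G28110) gave 780.5 and 899.4 in Pi-free Col-0 roots, against 908.5 and 1095 in control Col-0 roots. Its change was -0.25 ± 0.12 with an adjusted p of 0.69. scpl42 (AT5G42240) gave 252.5 and 305.3 in Pi-free Col-0 roots, against 226.8 and 190.7 in control Col-0 roots. Its change was 0.39 ± 0.20 with an adjusted p of 0.71. Averaged over the genotypes, the smallest p belonged to scpl16 at -0.68 ± 0.22, scpl42 at 0.29 ± 0.14 and scpl47 at 0.48 ± 0.26, with adjusted p of 0.63, 0.82 and 0.84.

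The Pi-free and control arrays of Col-0 were separate for 6 higher and 8 lower members, 20.7% and 27.6% of the family, against 17.7% and 17.5% of all probesets. In per1 they were separate for 4 higher and 4 lower members, 13.8% each, against 19.2% and 14.5% of all probesets. The members with the smallest p in per1 all had mean signals under 50. SCPL43 (AT2G12480) stood at 0.64 ± 0.29, scpl38 (AT2G05850) at 0.67 ± 0.33 and scpl21 (AT3G25420) at -0.55 ± 0.35, each with an adjusted p of 1 from limma. For scpl38 the per1 change rests on signals of 20.5 and 6.1 in Pi-free medium, against 2.5 and 1.3 in control medium, all under the bacterial maximum.

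**Figure D3:**
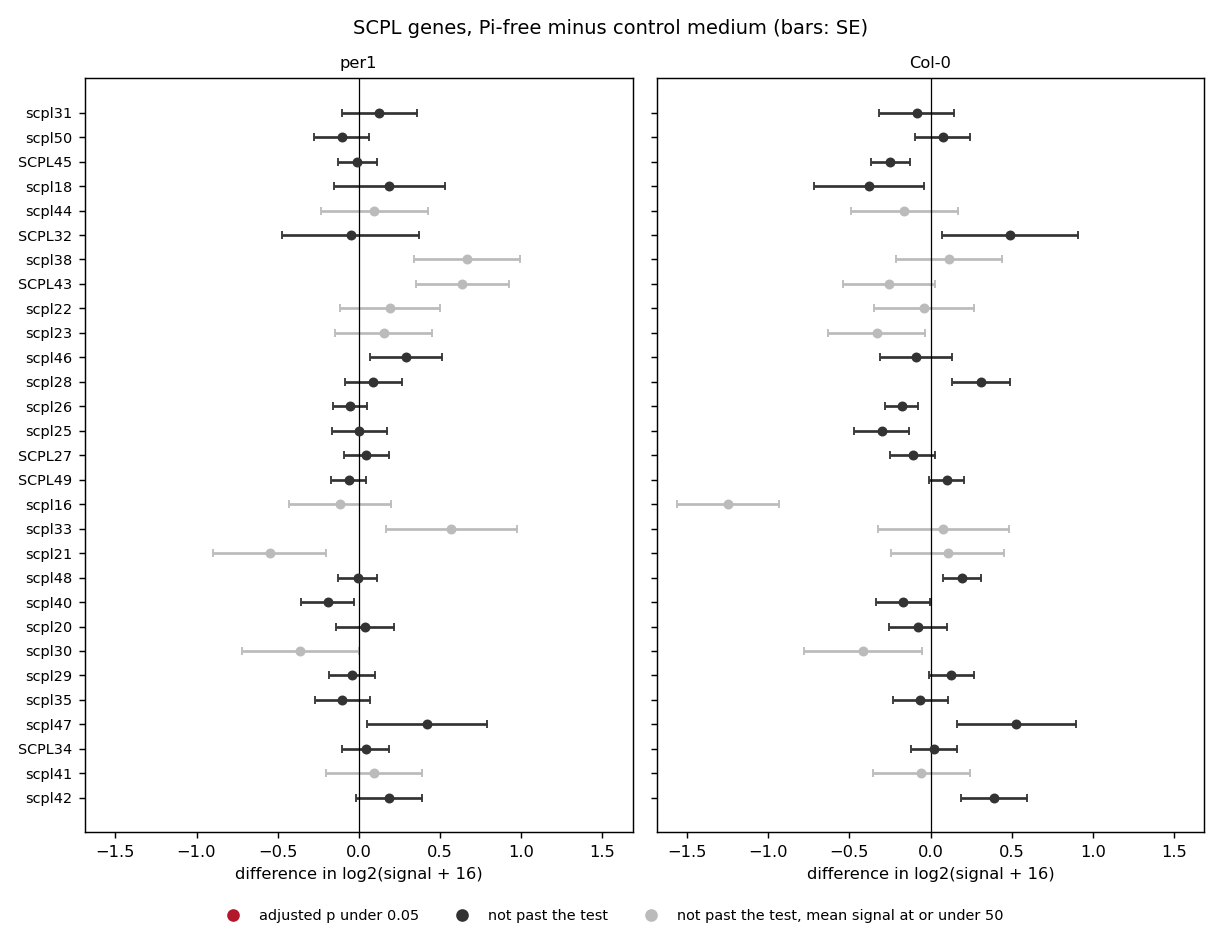
Change in log2(signal + 16) in Pi-free against control medium for each of the 29 members, in locus order, in per1 (left) and Col-0 (right); points are limma estimates from 2 arrays per group and bars are SE. No member passes the test; the estimate farthest from zero is scpl16 at -1.25 in Col-0, a member with a low signal (grey), followed in Col-0 by scpl47 at 0.53 and SCPL32 at 0.49.

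The interaction asked whether the Pi response of a member differed between per1 and Col-0. By limma 0 of 29 passed, where 0.00879% of all probesets did, and 1 member had an unadjusted p under 0.05, against 5.3% of all probesets. That was scpl16, at 1.13 ± 0.44 (SE), with an adjusted p of 0.92. SCPL43 stood at 0.89 ± 0.40 and SCPL45 at 0.24 ± 0.17, with the same adjusted p. SCPL43 was the 1 member of 29 whose Pi-free and control arrays were separate in opposite directions in the 2 genotypes, 3.45% of the family against 5.51% of all probesets. It gave 47.3 and 42.3 in Pi-free and 23.8 and 22.3 in control medium in per1, and 33.0 and 31.3 in Pi-free and 35.5 and 48.2 in control medium in Col-0. These signals lie close to the bacterial maximum of 26.1 to 43.4. For scpl26 the interaction was 0.12 ± 0.14 with a 95% interval of -0.20 to 0.45, and for SCPL27 it was 0.16 ± 0.19 with an interval of -0.28 to 0.59. The comparisons share arrays, so the estimates for a member are not independent of each other.

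**Figure D4:**
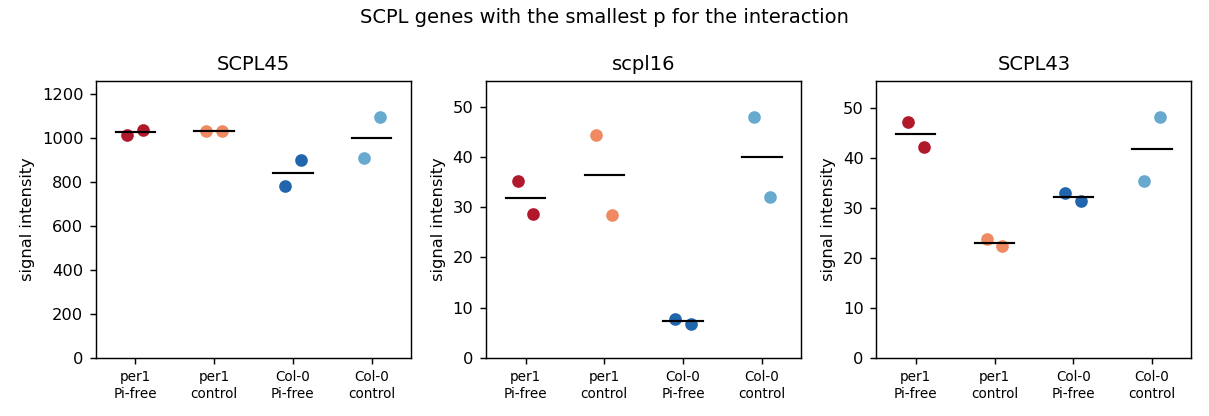
Signal intensity on each array (points; replicate 1 at the left, replicate 2 at the right) and group mean (line) for the 3 members with the smallest p in the interaction, in 4 groups of 2 arrays. The scpl16 arrays of Pi-free Col-0 roots read 7.8 and 6.8 while the other 6 lie between 28.5 and 48.0; no member passes the test.

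Position in the genome gave a few pairs of members to compare. In the RefSeq gene order scpl26 and scpl28 (AT2G35770) are direct neighbours on chromosome 2, with 0 protein-coding genes between them. The scpl28 arrays overlapped between genotypes, at 318.0 ± 32.2 in Pi-free per1 and 297.7 ± 26.2 in control per1 roots, against 400.3 ± 87.0 in Pi-free Col-0 and 316.1 ± 13.1 in control Col-0 roots (SD, n = 2 each). Its averaged genotype difference was -0.19 ± 0.13 (SE) with an adjusted p of 0.54 and an interval of -0.48 to 0.09, beside -0.91 to -0.58 for scpl26. scpl22 and scpl23, also neighbours on chromosome 2, read between 1.0 and 12.2 on every array. scpl41 and scpl42 have 2 protein-coding genes between them on chromosome 5. scpl41 read between 3.6 and 9.3 on every array, and scpl42 between 161.4 and 305.3.

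Over the 8 arrays the ratio of the highest to the lowest signal ran from 1.23 for SCPL49 to 5.18 for SCPL32 among the 19 members with a mean above 50, and was 1.89 for scpl26 and 1.82 for SCPL27. scpl29 ranged from 1385 to 1797, SCPL49 from 2083 to 2566, scpl40 (AT3G63470) from 224.2 to 283.3 and SCPL45 from 780.5 to 1095. scpl35 (AT5G08260) ranged from 590.7 to 864.3, with both extremes in control per1 roots, and scpl31 (AT1G11080) from 498.4 to 851.3. scpl46 (AT2G33530) ranged from 107.0 to 195.0. Averaged genotype differences near zero were those of scpl29, at 0.00 ± 0.10 (SE) with an interval of -0.23 to 0.22, and scpl35, at 0.02 ± 0.12 with an interval of -0.25 to 0.28.

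**Figure D5:**
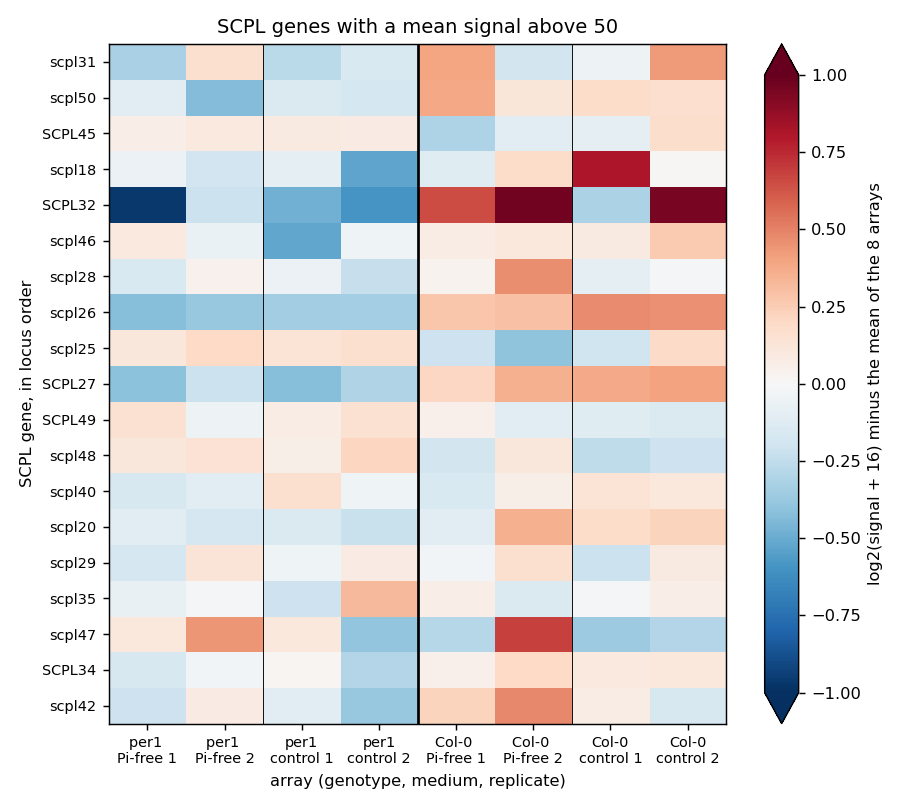
Log2(signal + 16) minus its mean over the 8 arrays (colour, capped at 1 in either direction) for the 19 members with a mean signal above 50, in locus order, on each array. The rows of scpl26 and SCPL27 are low on all 4 per1 arrays and high on all 4 Col-0 arrays, and SCPL32 shows the widest range, from 32.3 to 167.3 in signal.

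Some acyltransferases of the family use sinapoylglucose, so genes of sinapate ester and phenylpropanoid synthesis were read beside the members. Which of the members are acyltransferases was not assigned. Of 26 listed genes 6 had a named probeset: HCT, CCR2, REF1, UGT84A1, UGT84A3 and UGT84A4. None was called in any of the 7 comparisons. The smallest p belonged to UGT84A4, one of the glucosyltransferases of hydroxycinnamates, for the averaged Pi response. Its signal was 371.4 and 340.2 in Pi-free per1 and 479.5 and 371.3 in Pi-free Col-0, against 449.3 and 457.5 in control per1 and 552.1 and 601.8 in control Col-0 roots. The change was -0.39 ± 0.11 (SE) with an adjusted p of 0.46 from limma, and the Pi-free arrays were below the control arrays in both genotypes. In per1 against Col-0 averaged over the media, UGT84A4 stood at -0.29 ± 0.11 with an adjusted p of 0.26 from limma. UGT84A1, a related glucosyltransferase, stood at -0.31 ± 0.13 with an adjusted p of 0.30. In that comparison the 6 genes had a median of -0.06, with 5 below zero. Of 11 brassinosteroid genes only BRL1, a receptor related to BRI1, was measured, and its averaged genotype difference was -0.06 ± 0.16 with an adjusted p of 0.91.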

How the data were processed

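Per the labels' protocols, root total RNA was purified with a column kit, converted to biotin-labelled fragments by in vitro transcription and hybridised to Affymetrix arrays. The authors deposited linear probeset signal intensities, 1 column per array, with a 2% trimmed mean of 500.0 on each. For the summary software, its background step, detection calls and the genome build, the entry is: not given in the sources used here. Of 22810 probesets, 64 controls were left out. The platform annotation gave 1 gene for 13513 probesets, 503 had several and 8730 none; 13436 matched a RefSeq locus (TAIR10.1), which gave current symbols and gene order.

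Signals were tested as log2(signal + 16) in limma 3.58.1 (R 4.3.3), with 4 group means, an intensity trend in the moderated variances and 4 residual degrees of freedom. No array was dropped. Intervals are 95% and unadjusted. Data were simulated with normal noise for per1 against Col-0 in control medium over 22746 probesets. Each run held 200 probesets with a true log2 difference of 1 or a larger one, in either direction. In them 93.4% of true log2 differences of 1 were called, and 6.68% of calls were false. The true differences were placed only in probesets with a mean above the median of all probesets. The 93.4% therefore does not apply to members of lower signal. Nor is it the power of the measured comparison, which called 13 probesets. With fewer calls, the adjusted threshold is stricter than with 200 true differences. Changes are given for called members and the 3 of smallest p in each comparison; other members are given by position or as examples chosen after their values were seen. Members, lists and tests were chosen with earlier results of these data known. Family clades were not assigned, and no sequence was used. The replicates are biological per the labels, but their source is not stated, so p-values measure the spread between these arrays. The number of arrays limits the precision.

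Alternatives were pseudocounts of 1 and 64, quantile normalization, a mean signal above 50, no intensity trend, a replicate block and leaving out each array.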

Additional observations from a re-analysis of the deposited data

How the results depend on the processing

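Of the 21 member changes given by the naming rule, 21 kept their sign in every alternative run. This was in part fixed in advance, since the rule picks called members and those of smallest p. Dropping the intensity trend or adding the replicate block cannot change an estimate, nor can the signal filter for genes it keeps. Leaving out an array that is not part of a comparison also leaves its estimate unchanged. With pseudocounts of 1 or 64 or quantile normalization, the members called were the same in all 7 comparisons. With only probesets of mean signal above 50 tested, 2 members were called in control medium (scpl26 and SCPL27), 1 in Pi-free medium (scpl26) and 3 averaged over media (SCPL32 besides); all called probesets numbered 76, 80 and 500, against 13, 7 and 186 with no filter. This fit has 16169 probesets and its own variances, and which of these bears on the counts was not tested. Without the intensity trend limma called 0 members in control medium and 0 averaged over media, with 5 and 8 members at an unadjusted p under 0.05; it called 0 of all probesets in both, with 2062 and 2845 at an unadjusted p under 0.05. Leaving out 1 array gave 0 to 1 members in control medium and 1 to 2 averaged over media, where 1 to 14 and 12 to 232 probesets were called; each such fit has 3 residual degrees of freedom. The replicate numbers pair no samples by label, and the deviations of same-numbered arrays correlated at 0.0021 to 0.077 between groups. The 25S rRNA probeset nevertheless read higher on replicate 2 than on replicate 1 in every group. Whether the replicate number marks a batch was not tested. With the replicate block, 1 member (scpl26, adjusted p 0.044) was called in Pi-free medium, and no other call on a member changed; called probesets numbered 42 in control medium, 48 in Pi-free medium and 357 averaged over media. No alternative called a member in either Pi response, their average or the interaction, while all called probesets ranged from 1 to 42 in Col-0, 0 to 6 in per1, 2 to 70 on average and 0 to 2 in the interaction. The members' median kept its sign in all 14 alternatives for the genotype difference in control medium and averaged over media, where it ran from -0.22 to -0.07 and from -0.22 to -0.05, changed sign in 5 for the averaged Pi response, and in 1 for each of the other 4 comparisons. Members at the level of the bacterial controls carry little information on change.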
